A study of Oryza sativa with 6 samples.

Results

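A stretch of neighbouring rice genes, LOC4350820 to LOC4350900 in order of gene ID, is described here in leaves of a transgenic line and its parent. Its members are the probe sets that the platform annotation assigns to exactly 1 gene with an ID in this range, 49 of the 57381 probe sets on the array, and they read 41 genes. The stretch was chosen by the measured differences between KMD and XS11 on these same arrays, large ones of which lay close together there. The size and the number of the differences are therefore a description. A limma fit over the whole array gives the standard errors and says which members were called, but nothing is read from those calls and no p-value is given for single members.

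Both groups were leaves of 30-day seedlings of the cultivar Xiushui 11, with 3 arrays labelled as biological replicates of each. The XS11 group is the wild-type parent, and the KMD group is a transgenic line derived from it, which is known as a Bt rice carrying an insecticidal cry1Ab gene, a point the labels leave out. The labels describe 1 transgenic line, give no promoter or insertion site, and do not say how many plants made up a replicate. The stated question was what lies, at the molecular level, behind unintended effects in KMD.

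A plant transformed through tissue culture can differ from its parent at the inserted gene and also elsewhere, and breeders call such changes unintended effects. Genes of a plant chromosome that lie beside each other can be tandem copies of 1 family, which makes a run of neighbours a natural unit of description. The long arm of rice chromosome 11 is known for clusters of disease resistance genes. The tables used here name no product for 40 of the 41 genes of the stretch, so no such role is given to them. The exception is LOC4350872, also listed as ILI2, a helix-loop-helix protein gene of the family named for increased leaf inclination.

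In the RefSeq assembly ASM3414082v1 all 41 genes lie on chromosome 11, and their order by gene ID is the same as their order by position. This assembly served only for names and neighbours, because no genome build is named for the array values. It holds 110 genes from the first to the last member, so 69 are not analysed here, and 16 of the 40 steps from one member to the next skip no annotated gene. The longest unread steps lie between LOC4350847 and LOC4350852, with 14 genes, and between LOC4350852 and LOC4350860, with 12. Of the 41 genes, 40 are listed as protein coding and LOC4350870 as a miscellaneous RNA. RefSeq lists 1 transcript for 30 of them and more than 1 for 11, with at most 6, for LOC4350864.

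The values are MAS5 signals, the summary of the probes of a probe set on a linear scale. Array medians ran from 35.5 to 38.7, and no detection calls were at hand. The 10th percentile of all values, 11.17, served as a mark of the dim end, and differences are given as KMD minus XS11 on the scale of log2(signal + 11.17), on which the change of a dim probe set comes out too small. Signals of different probe sets are not compared with each other, because each binds with its own strength. In bulk leaf RNA, fewer cells of a type and less RNA per cell cannot be told apart.

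Of 7 leaf markers found in the naming table, 6 lay above the 99th percentile of signal, among them the Rubisco small subunit gene RBCS-C, the Rubisco activase gene RCAA1 and the light-harvesting gene CAB2R. The exception was the probe set of RBCS1, at 19.5 in KMD and 15.5 in XS11. The summed signal of the leaf markers was 54888 to 55456 in the KMD arrays and 58513 to 58949 in the XS11 arrays. All 5 root markers were lower in KMD, with a summed signal of 457 to 496 against 791 to 834 (none at 0, the lowest being Lsi2 at 11.8 against 14.7), and all 4 seed storage and endosperm markers were higher, with 876 to 933 against 654 to 682. That sum is carried by the glutelin gene GLUA2 (716 against 530) and the granule-bound starch synthase gene waxy (174 against 117). GLUA1 (5.94 against 5.82) and the prolamin gene (15.7 against 14.7) were dim in both lines. The 2 anther markers summed to 51.4 to 54.5 in KMD and 44.5 to 49.8 in XS11, and they went opposite ways. RTS read 37.7 in KMD against 30.9 in XS11, and C6 15.0 against 17.1. The 36 poly-A spike-in probe sets, added to the RNA before labelling, were all higher in KMD, by 0.62 on the log2 scale. For actin, signal at the 3' end was 5.79 ± 0.14 times that at the 5' end in KMD and 4.62 ± 0.30 times in the parent (SD, n = 3 each), and for GAPDH 3.48 ± 0.05 against 2.75 ± 0.21 times. For ubiquitin it was 1.17 ± 0.02 against 0.99 ± 0.03 times, and for cyclophilin, the control that was lower in KMD, 0.91 ± 0.06 against 1.06 ± 0.05 times. These values differ between the same arrays as every result below, and their part in the differences was not tested.

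Among the 49 probe sets, 9 probe sets of 8 genes were at least 2-fold apart between the lines. Of these, 4 were higher in KMD, in LOC4350822, LOC4350879, LOC4350883 and LOC4350888, and 5 were lower, in LOC4350823, LOC4350826 with both of its probe sets, LOC4350847 and LOC4350894. That is 18.4% of the members, beside 1.14% of the 57258 probe sets of the array without its controls (0.377% higher and 0.765% lower). Among probe sets that read exactly 1 gene, as the members do, the share was 0.98% on the rest of chromosome 11 and 1.94% on the other chromosomes. The stretch was chosen for these differences, so nothing is read from that contrast. The median difference over the 49 probe sets was -0.06, and that over all 57258 was 0.004.

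The arrays of the lines did not overlap in 27 of the 49 probe sets (55.1%), with 9 higher and 18 lower in KMD, beside 35.5% of all probe sets but controls (17.2% higher and 18.3% lower). Among probe sets that read exactly 1 gene the share was 50.9% on the rest of chromosome 11 and 54.8% on the other chromosomes, close to that of the stretch. Of the members, 37 were bright enough to be tested and 12 were too dim. The limma fit over all 34380 tested probe sets, at a Benjamini-Hochberg adjusted p of 0.05, called 23 of the 37, with 8 higher and 15 lower. Over the whole array it called 39.7%, with 18.1% higher and 21.6% lower, and among probe sets that read exactly 1 gene 52.4% on the rest of chromosome 11 and 54.8% on the other chromosomes. Centred on the spike-ins, the limma counts became 4 higher and 31 lower and the 2-fold counts 2 higher and 10 lower. Over the whole array, limma called 324 higher and 32578 lower on that scale, of the 34380 tested. All 9 probe sets kept their direction on that scale, but LOC4350822, at 0.46, and LOC4350883, at 0.78, were no longer 2-fold higher.

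**Figure D1:**
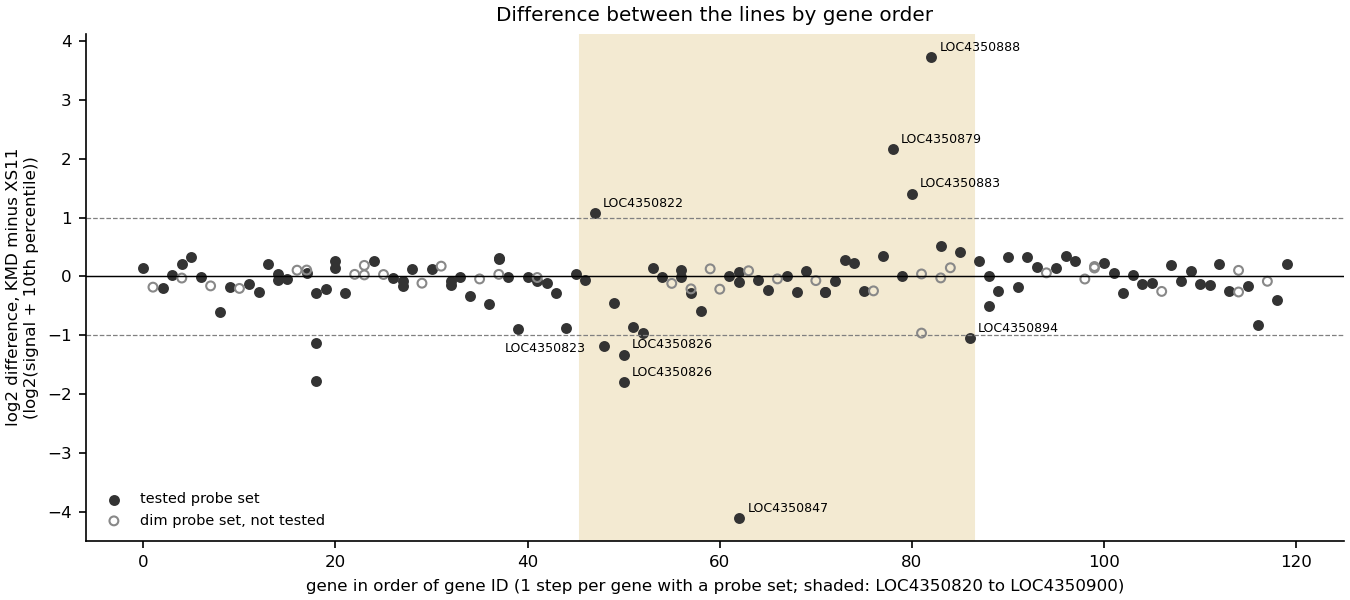
Log2 difference between KMD and XS11 (y axis) of every probe set in and around the stretch, with genes in order of gene ID along the x axis, 1 step per gene that has a probe set. The shaded part is LOC4350820 to LOC4350900, the dashed lines mark 2-fold, open circles are dim probe sets that were not tested, and the 9 labelled points are the members at least 2-fold apart, from -4.10 for LOC4350847 to 3.73 for LOC4350888. Centring on the spike-ins shifts all points down by 0.62.

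The lower end of the stretch holds genes that were mostly lower in KMD. The first member, LOC4350821, read 118 ± 10.3 in KMD and 123 ± 3.81 in XS11 (SD, n = 3 each), and the arrays of the lines overlapped. LOC4350822, the next annotated gene, read 113, 141 and 128 in the KMD arrays and 53.8, 55.5 and 53.2 in the XS11 arrays. All KMD arrays were above all XS11 arrays, and the log2 difference was 1.08 (SE 0.08).

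LOC4350823, which directly follows LOC4350822 in the assembly, went the other way. It read 21.6, 26.9 and 27.9 in KMD and 76.3, 74.5 and 64.4 in XS11, a log2 difference of -1.18 (SE 0.10). The KMD arrays were lower without overlap, so these 2 adjacent genes differed between the lines in opposite directions.

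From LOC4350823 to LOC4350829, all 6 probe sets of 5 genes were lower in KMD with no overlap of the arrays, by -0.44 to -1.79. Over all probe sets but controls, 18.3% were lower without overlap. Among probe sets that read exactly 1 gene, 295 of 1019 on the rest of chromosome 11 and 6614 of 21366 on the other chromosomes were. The run was marked off with the values known. LOC4350824 had the smallest difference of the run, at 40.6, 48.4 and 40.6 in KMD and 60, 59 and 69.1 in XS11 (-0.44, SE 0.09). LOC4350827 read 70.1, 79.7 and 67.3 against 141, 135 and 144 (-0.86, SE 0.07). LOC4350829 read 145, 132 and 144 against 279, 290 and 283 (-0.96, SE 0.05), just short of 2-fold on this scale.

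LOC4350826 was the gene of this run with the largest difference, and it has 2 probe sets. The dimmer one read 28.6, 21.7 and 28.1 in KMD and 113, 120 and 121 in XS11, a log2 difference of -1.79 (SE 0.09). The brighter one read 84.5, 78.8 and 83.3 in KMD and 228, 231 and 212 in XS11, a log2 difference of -1.33 (SE 0.06). Both showed the KMD arrays below the XS11 arrays, and they differed from each other by 0.47 on the log2 scale.

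**Figure D2:**
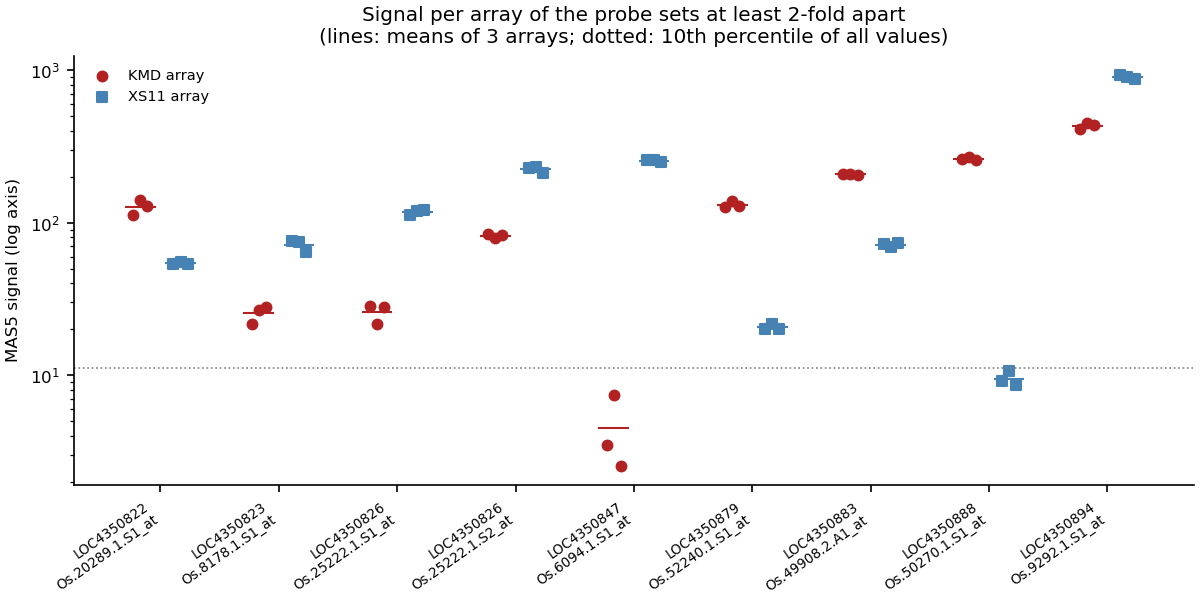
MAS5 signal (log axis) of the 9 probe sets at least 2-fold apart, with circles for the 3 KMD arrays, squares for the 3 XS11 arrays and short lines for their means. The arrays of the lines do not overlap in any of the 9, and 2 of them have 1 line wholly under the dotted 10th percentile, LOC4350847 in KMD and LOC4350888 in XS11.

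The next part, LOC4350832 to LOC4350847, was quiet but for a few probe sets. Of its 14 probe sets on 10 genes, 9 had overlapping arrays, 5 were lower in KMD without overlap and 0 were higher. Over all probe sets but controls, 18.3% were lower and 17.2% higher without overlap. Among probe sets that read exactly 1 gene, 295 of 1019 on the rest of chromosome 11 were lower and 224 higher. On the other chromosomes 6614 of 21366 were lower and 5093 higher. LOC4350832, LOC4350833 and both probe sets of LOC4350835 lay between -0.01 and 0.14. LOC4350844, at 4681 ± 190 in KMD and 4631 ± 19.6 in XS11, had a log2 difference of 0.01 (SE 0.03).

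LOC4350837 was lower in KMD, at 58.4, 57.5 and 61 against 98.8, 92.4 and 90.9 in XS11 (-0.58, SE 0.07). LOC4350836 was lower in both of its probe sets, by -0.28 (SE 0.09) in the one of type x_at and by -0.21 in the one of type at, which was too dim to be tested. The x_at type can take signal from related genes. LOC4350834, LOC4350839 and LOC4350843 were also too dim, with mean signals between 10.9 and 20.8 in both lines and differences of -0.12, 0.13 and -0.22.

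LOC4350847 was bright in XS11 and at the dim end in KMD in 1 of its 3 probe sets. That probe set read 3.47, 7.47 and 2.56 in KMD and 257, 257 and 252 in XS11, a log2 difference of -4.10 (SE 0.11). All KMD values were under the 10th percentile of the array, so no level above background is shown in KMD, and the size of the difference depends on the constant added before the logarithm (-5.64 with a constant of 1).

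The other probe sets of LOC4350847 showed no such gap. The dimmer of these read 31.3, 26.5 and 29 in KMD and 26.7, 26.9 and 26.6 in XS11, a log2 difference of 0.08 (SE 0.08). The brighter read 43.7, 49.4 and 51.5 against 49.5, 53.2 and 54.5 (-0.10, SE 0.08). The arrays of the lines overlapped in both, so the difference of this gene rests on 1 probe set, and the 3 probe sets spanned 4.18 on the log2 scale.

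**Figure D3:**
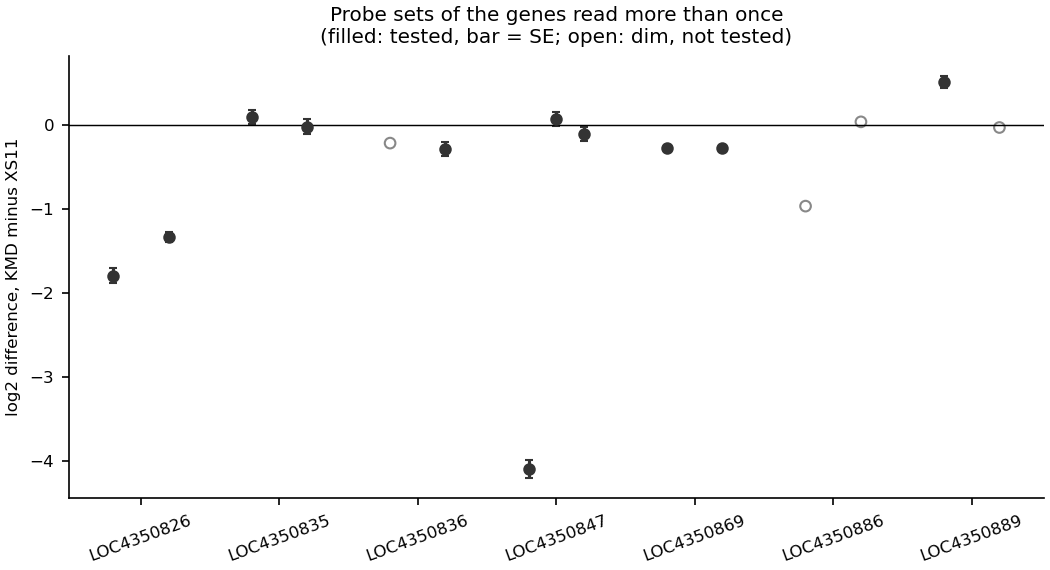
Log2 difference, KMD minus XS11 (y axis), of each probe set of the 7 genes that are read by more than 1, with standard errors from the limma fit as bars and open circles for dim probe sets. The probe sets of LOC4350826, LOC4350836 and LOC4350869 lie on 1 side of 0, while 1 probe set of LOC4350847 lies at -4.10 and the others near 0; centring on the spike-ins shifts all points down by 0.62, which puts every one of them below 0.

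In the middle of the stretch, LOC4350852 to LOC4350877, no probe set was 2-fold apart. Its 16 probe sets on 15 genes ran from -0.27 to 0.35, and 8 had overlapping arrays. The limma fit called 7 of the 12 tested ones, 2 higher and 5 lower. Over the whole array 39.7% of tested probe sets were called, and 35.5% of all but controls had no overlap. Among probe sets that read exactly 1 gene on the other chromosomes, both shares were 54.8%. The small differences of this part are of a size that scaling moves, as the spike-in shift of 0.62 is larger than each of them.

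Among the lower ones, LOC4350869 read 1331 ± 50.4 in KMD and 1605 ± 10.1 in XS11 in its probe set of type at (-0.27, SE 0.04), and its x_at probe set gave the same difference of -0.27 (SE 0.04). LOC4350865 (-0.26), LOC4350861 (-0.24) and LOC4350873 (-0.24) were similar, each with SE 0.04 or 0.05 and no overlap of the arrays. LOC4350873 had mean signals of 4717 in KMD and 5589 in XS11.

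LOC4350877 was higher in KMD, at 666, 682 and 666 against 553, 520 and 504 (0.35, SE 0.04), and LOC4350871 read 481, 451 and 418 against 357, 392 and 353 (0.28, SE 0.06). Both directions turned when the arrays were centred on the spike-ins, to -0.27 and -0.34. LOC4350872, the ILI2 gene, read 61.7, 55.6 and 66.8 in KMD and 46.2, 50.8 and 55.6 in XS11 (0.23, SE 0.09). The lowest KMD array and the highest XS11 array nearly met, it was not among the limma calls, and on the spike-in scale it stood at -0.39.

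The remaining genes of the middle part differed little. LOC4350860 (-0.06), LOC4350864 (0.01), LOC4350866 (0.10) and LOC4350870 (-0.08) were tested and not called. LOC4350852 (0.10), LOC4350863 (-0.04), LOC4350867 (-0.07) and LOC4350876 (-0.24) were too dim to be tested. The arrays of the lines overlapped in all 8.

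The upper end, LOC4350879 to LOC4350894, holds the genes that were higher in KMD by the largest amounts. Of its 11 probe sets on 9 genes, 5 were higher without overlap, 2 were lower and 4 overlapped. Over all probe sets but controls, 17.2% were higher and 18.3% lower without overlap. Among probe sets that read exactly 1 gene, 50.9% on the rest of chromosome 11 and 54.8% on the other chromosomes had no overlap. LOC4350879 read 126, 138 and 128 in KMD and 20.1, 21.6 and 20 in XS11. All KMD arrays were above all XS11 arrays, and the log2 difference was 2.16 (SE 0.08).

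LOC4350883 read 209, 208 and 207 in KMD and 72.4, 69.5 and 73.1 in XS11, a log2 difference of 1.41 (SE 0.06). LOC4350881, the member between it and LOC4350879, read 92.1 ± 1.12 in KMD and 91.2 ± 1.91 in XS11, a log2 difference of 0.01 (SE 0.07), which is within its error. Higher genes of this part were thus separated by a member whose arrays overlapped.

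LOC4350888 was near the dim end in the parent and bright in KMD. It read 262, 270 and 257 in KMD and 9.13, 10.7 and 8.65 in XS11, a log2 difference of 3.73 (SE 0.08). All XS11 values lay under the 10th percentile, so no level above background is shown in XS11, and with a constant of 1 the difference was 4.66.

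LOC4350889, which directly follows LOC4350888, was higher in KMD in its brighter probe set, at 153, 152 and 152 against 115, 100 and 94.3 (0.52, SE 0.07). Its other probe set was dim in both lines, at 13.3 ± 1.45 and 13.8 ± 1.25 (-0.02). LOC4350893 read 55.8, 58.9 and 62.6 in KMD and 41.4, 37.8 and 45.5 in XS11 (0.42, SE 0.09). On the spike-in scale LOC4350889 stood at -0.10 in its brighter probe set and LOC4350893 at -0.21, both turned in direction.

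LOC4350894, the last member and the direct neighbour of LOC4350893, was lower in KMD. It read 409, 449 and 436 in KMD and 926, 904 and 875 in XS11, a log2 difference of -1.05 (SE 0.04), with no overlap. As at the lower end, adjacent genes differed in opposite directions on the scale of the deposited values; on the spike-in scale both were lower, LOC4350894 by -1.67.

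LOC4350886 has 2 probe sets, and the mean signal of both over the 6 arrays was too low for the test. The brighter in XS11 read 11.4, 13.2 and 10.8 in KMD and 36.1, 32.1 and 32.5 in XS11 (-0.96), with no overlap, while the other read 9.72, 11.8 and 12.2 against 12.3, 11.4 and 8.15 (0.04). In the first, 1 KMD array and 0 XS11 arrays lay under the 10th percentile, and in the second 1 array of each line did. Without the added constant, the XS11 mean of the first was 2.85 times its KMD mean. LOC4350892 had the widest spread within a line of all members (within-line SD 0.22 on the log2 scale), at 37.7, 26.6 and 20.7 in KMD and 22.6, 24.9 and 24.4 in XS11, and its arrays overlapped.

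Replicate arrays were close to each other over the stretch. The within-line SD on the log2 scale had a median of 0.08 over the 49 probe sets and ran from 0.02 for LOC4350881 to 0.22 for LOC4350892. In the 9 probe sets at least 2-fold apart it ran from 0.02 to 0.16.

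**Figure D4:**
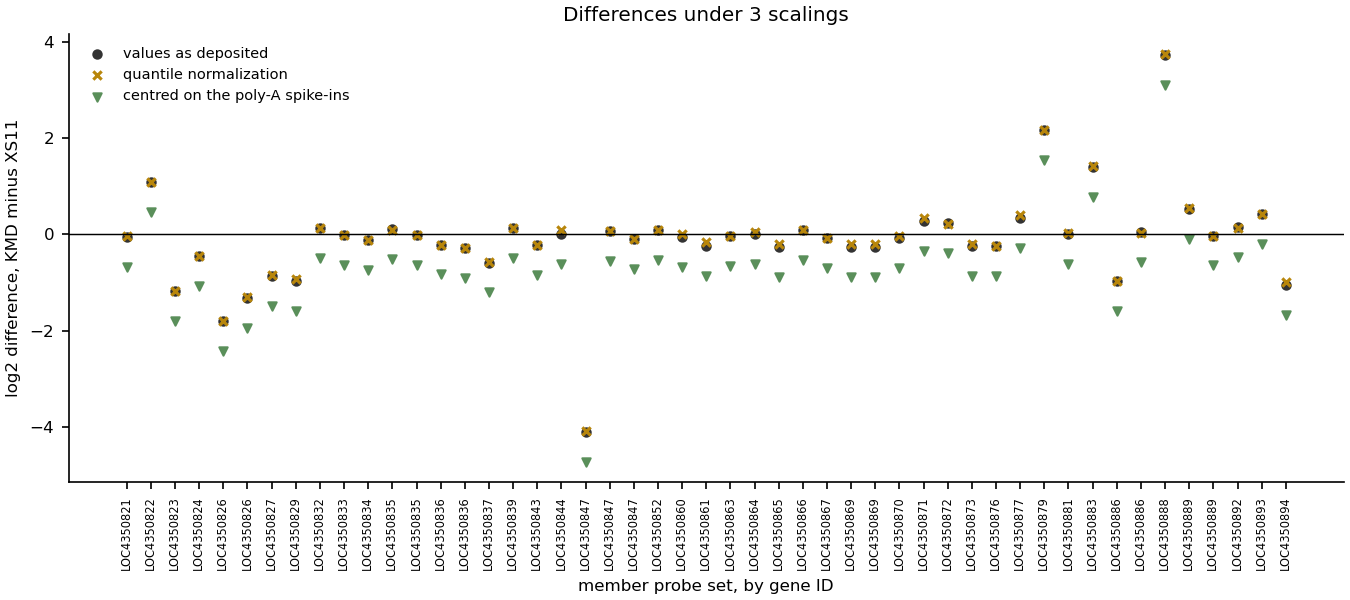
Log2 difference, KMD minus XS11 (y axis), of the 49 member probe sets in order of gene ID under 3 scalings of the arrays. Quantile normalization moves the points little, but takes LOC4350894 to -0.98, just under 2-fold. Centring on the poly-A spike-ins lowers all points by 0.62, which keeps the direction of the 9 probe sets at least 2-fold apart and takes LOC4350822 and LOC4350883 under 2-fold. It leaves 4 of the 49 above 0 (LOC4350822, LOC4350879, LOC4350883 and LOC4350888).

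The differences on both sides of the ends of the range were as follows. Just outside its lower end, LOC4350819 stood at 0.05, LOC4350817 at -0.88 and LOC4350816, listed as the GDP-mannose epimerase gene GME-2, at -0.29, while the first 3 members inside stood at -0.06, 1.08 and -1.18. Just outside its upper end, LOC4350905 stood at 0.26, LOC4350906 at 0.01 and -0.51 in its 2 probe sets and LOC4350912 at -0.25, while the last 3 members inside stood at 0.15, 0.42 and -1.05.

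Stretches of the same width of gene IDs on either side are given as values with no test. Below, 2 of 58 probe sets (3.45%) were at least 2-fold apart, both lower in KMD and both of LOC4350779, at -1.77 and -1.13, with its other probe set at -0.28. Above, 0 of 36 were. The share called by limma was 46.5% of the tested probe sets below and 64.3% above, beside 62.2% in the stretch itself. Over the whole array it was 39.7%. Among probe sets that read exactly 1 gene it was 52.4% on the rest of chromosome 11 and 54.8% on the other chromosomes. On the rest of chromosome 11, 10 of 1019 probe sets (0.98%) were at least 2-fold apart, 2 higher and 8 lower.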

How the data were processed

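Total RNA from leaves was made into biotin-labelled cRNA for Affymetrix arrays, per the labels' protocols. The deposited values are intensity on a linear scale, 1 MAS5 signal per probe set and array, made by the authors; MAS5 is named in the submitters' processing notes, and its scaling target is not given in the sources used here. All 6 columns were used, with 3 arrays per line, which limits the precision.

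Signals were transformed as log2(signal + 11.17). Differences and SEs come from limma 3.58.1 in R 4.3.3 (lmFit, eBayes with trend, two-sided), fitted on 34380 probe sets: the upper 60% of mean signal plus 64 reporter probe sets, without 123 controls. The fit was tested on simulated data. In the annotation 22436 probe sets have 1 gene, 95 several and 34850 none. Of the probe sets with several genes, 0 include a member.

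Every member is accounted for. Array values are given for members at least 2-fold apart without overlap and for the 7 genes named in the rule of the stretch, and for other members where their spread or neighbours are described; the latter were chosen after the values were seen. Members, lists and segments were chosen with earlier results of these data known. The labels give no batch, and any batch that split as the lines do cannot be told apart from the lines. Figures were drawn with matplotlib 3.10.9.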

Additional observations from a re-analysis of the deposited data

How the results depend on the processing

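An added constant of 1 or 18.5 (the 25th percentile), testing all probe sets or only the upper 40%, quantile normalization, centring on array medians, no intensity trend, array weights and 1 probe set per gene kept each count of members within 1.5 times its value. Within that band, the 2-fold lower count was 7 with a constant of 1 and 4 with quantile normalization, where LOC4350894 stood at -0.98. It was also 4 with only the upper 40% and with 1 probe set per gene. Centring on the poly-A spike-ins moved the median of all tested probe sets to -0.62. On that scale limma called 324 probe sets higher and 32578 lower over the whole array. Each member count changed, to 2 higher and 10 lower at 2-fold and 4 higher and 31 lower by limma. Without overlap 4 members were higher and 43 lower, and the member median was -0.68. The whole array moved down on that scale, so nothing is read from these counts about the members. The whole-array share without overlap on that scale is not given here. The centring reversed LOC4350871 (-0.34), LOC4350877 (-0.27), LOC4350889 (-0.10) and LOC4350893 (-0.21), which follows from the shift of the scale. At 1.5-fold 4 were higher and 8 lower, and at 4-fold 2 higher and 1 lower. Leaving out each array gave 4 higher and 5 to 6 lower at 2-fold, and 8 to 9 higher and 14 to 15 lower by limma. Without overlap it gave 10 to 12 higher and 19 to 22 lower (fewer arrays can overlap), and the median was -0.062 to -0.029. With all 6 arrays, limma called 39.7% over the whole array, and 35.5% had no overlap. The whole-array shares with an array left out are not given here. Same-numbered arrays had deviations correlating at -0.24, -0.01 and -0.25, and different-numbered ones at -0.06 to 0.32. No pairing by number is thus shown, and with the replicate block limma called 8 members higher and 15 lower. Detection calls were not analysed here, so levels at or near the dim end, as in LOC4350847, LOC4350886 and LOC4350888, are limited by background.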
